A study of Mus musculus with 2 samples.

Results

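CpG, CHG and CHH methylation was described in 3 stretches of the mouse genome that are rich in vomeronasal receptor genes, in bisulfite reads of the adult dentate gyrus. The stretches, called windows here, were set by position in the mm9 build, with no measured value in the rule: chr7:11000001-15000000 (4.0 Mb), chr17:18200001-23300000 (5.1 Mb) and chr5:109200001-110000000 (0.8 Mb). Earlier results of these data were known when they were chosen, and had named part of the chromosome 7 window as low in CHG. Cut into steps of 100 kb they gave 40, 51 and 8 steps, 99 in all, of 23934 autosomal bins of that size with a listed CHG site. Each window was set against its flanks, the 2 Mb on either side, which gave 120 further steps. Of the 27374435 listed cytosines with at most 100 reads in the library used, 104388 lay in the windows: 7955 CpG, 69684 CHG and 26749 CHH sites, where H is A, C or T.

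The library was replicate 2 of 2 whole-genome bisulfite libraries, made from dentate gyrus dissected from adult male mice of a C57BL/6 background, aged 8 to 10 weeks. Both libraries were labelled WT, for wild type, and there was no second genotype or treatment. Levels are averages over all cells of the tissue, and bisulfite reads do not separate methylcytosine from hydroxymethylcytosine. Replicate 2 listed 27435342 cytosines and replicate 1 only 172020, so the windows were described in replicate 2 and have no replicate error. The median depth in the windows was 23 reads at CpG and CHG sites and 32 at CHH sites. A level is the share of methylated reads among all reads of a set of sites, with an exact Clopper-Pearson 95% interval, which covers counting error only.

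Vomeronasal receptors detect pheromones and other social odours in sensory neurons of the vomeronasal organ. The V1R family (Vmn1r genes) has a short extracellular end and its coding sequence lies in a single exon. The V2R family (Vmn2r genes) has a long extracellular domain and several coding exons. Each sensory neuron uses very few of these genes, and they are not known for a role in the hippocampus. In the mammalian brain most methylation lies in CpG dinucleotides. Methylation at CHG and CHH, together called CpH, builds up in neurons after birth and is found mostly where the next base is A.

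No genome of the mm9 build was used here, so genes were placed in it through the methylation calls themselves. RefSeq promoter sequences of the GRCm38.p6 build, 250 bases before to 50 bases after the gene start, were laid over the listed cytosines. A placement was kept when at least 8 listed cytosines fell beneath the sequence, all matched its cytosines and their context, no other position on the chromosome fitted, and another gene had the same shift between the builds. That placed 16 vomeronasal receptor promoters of the 163, 44 and 11 receptor genes with a promoter sequence on chromosomes 7, 17 and 5. Those totals cover whole chromosomes, while placements were sought only in the windows and flanks, so they give no placement rate. In the chromosome 7 window the placed receptor genes were Vmn1r67, Vmn1r69, Vmn1r78, Vmn1r81, Vmn1r83, Vmn2r55 and Vmn2r56. In the chromosome 17 window they were Vmn2r93, Vmn2r96, Vmn2r104, Vmn2r110, Vmn1r234 and Vmn1r237, and in the chromosome 5 window Vmn2r12, Vmn2r15 and Vmn2r16. Genes of both receptor families were thus placed in the windows of chromosomes 7 and 17, and V2R genes alone in that of chromosome 5. No receptor promoter was placed above position 13318703 of chromosome 7 or 21451029 of chromosome 17. Whether the upper parts of these 2 windows hold receptor genes was therefore not shown here.

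The 250 bases before the start of 7 of these genes are shown because the promoters are where the sequence and the calls can be read together. They run 5′ to 3′ along the gene, in lower case, and capitals mark each listed CpG. Vmn1r69 (chr7:11166836-11167085, minus strand) and Vmn1r83 (chr7:12907477-12907726, minus) stand for the V1R genes of chromosome 7. Vmn2r104 (chr17:20185169-20185418, minus) and Vmn2r110 (chr17:20733223-20733472, minus) stand for the V2R genes of chromosome 17. Vmn2r12 (chr5:109526883-109527132, minus), Vmn2r15 (chr5:109726575-109726824, minus) and Vmn2r16 (chr5:109759149-109759398, plus) are all that were placed on chromosome 5. Zbtb45 (chr7:13595201-13595450, minus), a zinc finger gene inside the chromosome 7 window, is shown for contrast.
Vmn1r69: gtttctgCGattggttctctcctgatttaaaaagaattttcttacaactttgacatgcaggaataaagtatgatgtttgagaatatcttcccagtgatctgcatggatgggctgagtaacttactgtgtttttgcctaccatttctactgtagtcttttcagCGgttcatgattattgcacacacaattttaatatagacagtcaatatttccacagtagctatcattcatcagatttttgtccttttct
Vmn1r83: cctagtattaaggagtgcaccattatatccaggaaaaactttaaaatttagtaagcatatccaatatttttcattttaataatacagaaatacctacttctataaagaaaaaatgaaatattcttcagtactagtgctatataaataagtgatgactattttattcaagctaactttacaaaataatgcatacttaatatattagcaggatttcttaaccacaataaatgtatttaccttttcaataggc
Vmn2r104: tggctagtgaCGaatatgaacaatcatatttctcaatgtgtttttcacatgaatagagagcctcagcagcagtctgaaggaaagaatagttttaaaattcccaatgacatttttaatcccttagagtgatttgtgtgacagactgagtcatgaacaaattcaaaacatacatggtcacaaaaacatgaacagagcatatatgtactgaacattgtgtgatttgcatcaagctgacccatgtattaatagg
Vmn2r110: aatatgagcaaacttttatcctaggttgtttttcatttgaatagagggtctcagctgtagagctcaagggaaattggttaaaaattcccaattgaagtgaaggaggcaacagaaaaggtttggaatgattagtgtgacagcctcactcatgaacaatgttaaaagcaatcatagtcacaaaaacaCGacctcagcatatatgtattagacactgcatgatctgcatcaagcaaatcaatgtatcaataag
Vmn2r12: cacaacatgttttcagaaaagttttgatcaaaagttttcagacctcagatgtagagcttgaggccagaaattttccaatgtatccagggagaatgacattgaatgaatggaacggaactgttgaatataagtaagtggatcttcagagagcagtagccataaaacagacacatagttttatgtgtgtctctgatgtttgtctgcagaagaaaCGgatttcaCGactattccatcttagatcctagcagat
Vmn2r15: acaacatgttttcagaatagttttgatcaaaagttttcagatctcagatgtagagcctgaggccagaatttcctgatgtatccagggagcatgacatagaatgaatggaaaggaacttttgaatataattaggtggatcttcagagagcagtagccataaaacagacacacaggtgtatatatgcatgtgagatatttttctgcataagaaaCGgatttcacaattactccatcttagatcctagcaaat
Vmn2r16: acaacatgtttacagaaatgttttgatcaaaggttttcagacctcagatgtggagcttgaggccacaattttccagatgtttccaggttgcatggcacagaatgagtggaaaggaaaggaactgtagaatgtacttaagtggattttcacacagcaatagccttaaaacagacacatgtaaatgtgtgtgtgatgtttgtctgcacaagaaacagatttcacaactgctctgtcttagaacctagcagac
Zbtb45: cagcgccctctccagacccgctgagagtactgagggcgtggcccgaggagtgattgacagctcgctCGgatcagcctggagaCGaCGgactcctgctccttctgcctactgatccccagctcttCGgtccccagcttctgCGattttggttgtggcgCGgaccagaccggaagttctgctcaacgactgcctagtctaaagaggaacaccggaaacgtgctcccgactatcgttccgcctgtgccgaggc

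The receptor promoters held few CpG dinucleotides, while that of Zbtb45 held many. CpGs were counted as the letters CG, which read the same on both strands. The 219 RefSeq promoter sequences of receptor genes on the 3 chromosomes were not limited to the windows. They had a median of 1 CpG in 300 bases, and 43 of them (19.6%) had none. Among all 32851 RefSeq promoter sequences the median was 7 and 5.43% had none. The median GC content was 36.7% in the receptor promoters, against 52.7% in all promoters. The 16 placed receptor promoters had 0 to 3 CpG each, against 24 in Zbtb45.

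Methylation at the CpGs that the receptor promoters did hold ranged widely between sites. Over 15 listed CpG sites in 9 placed receptor genes, 59.0% of 378 reads were methylated (interval 53.8% to 64.0%), and the genes ranged between 16.7% and 83.7%. Vmn2r110 was the lowest, with 5 of 30 reads methylated at the CpG 64 bases before its start. Vmn2r56 was the highest, at 83.7% of 49 reads over 2 sites, 1 with 23 of 23 and 1 with 18 of 26 methylated. In Vmn1r69 the CpG 242 bases before the start was methylated in 21 of 31 reads and the CpG 87 bases before it in 22 of 23. In Vmn2r104 the CpG 239 bases before the start was methylated in 26 of 28 reads. Both Vmn2r12 and Vmn2r15 had a listed CpG 37 bases before the start, methylated in 12 of 22 and 7 of 25 reads, and Vmn2r16 and Vmn1r83 had no listed CpG. With 21 to 34 reads a site, the intervals of single sites are wide (5.64% to 34.7% for the site in Vmn2r110), and the order of most genes cannot be told from counting error.

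CpH methylation in the receptor promoters was low at CHG sites and less certain at CHH sites. At 107 CHG sites in the 16 placed receptor promoters 8 of 2657 reads were methylated, or 0.301% (0.130% to 0.592%). At 58 CHH sites in 8 of them 14 of 1963 reads were, or 0.713% (0.390% to 1.19%). That interval takes in the CHH level of the windows (0.402%) and of the autosomes (0.889%). CHH in the other promoters placed in the windows read 5 of 648, and in those placed in the flanks 0 of 1046. No CpH site in the receptor promoters had more than 2 methylated reads. Of the other promoters placed in the windows, Zbtb45 had 0 methylated of 130 reads over 6 CpG sites, which allows a level of up to 2.31% by 3 counts of the reads. Zfp948, a zinc finger gene in the chromosome 17 window, had 0 of 69 over 3 sites (up to 4.35%), and Gm41538 had 65 of 72 over 3. Fpr1 and Fpr3, formyl peptide receptor genes placed just below the chromosome 17 window, had 14 of 23 and 20 of 23 reads methylated at their single listed CpG. Formyl peptide receptors sense bacterial and mitochondrial peptides, and in the mouse some members of the family are used by vomeronasal neurons.

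Across the windows as a whole, CpG methylation was high and CpH methylation was close to the level of failed conversion. Over all 3 windows CHG sites were methylated in 0.403% of reads (0.394% to 0.413%), against 0.618% (0.606% to 0.631%) in the flanks and 0.784% over all autosomes. At CHH sites the levels were 0.402% (0.389% to 0.415%) in the windows, 0.629% (0.610% to 0.649%) in the flanks and 0.889% over the autosomes. At CpG sites they were 75.0% (74.8% to 75.2%) in the windows, 76.7% (76.5% to 76.9%) in the flanks and 79.0% over the autosomes. Mitochondrial cytosines served as the measure of failed conversion, on the assumption that they carry little methylation and that nuclear DNA fails to convert at the same rate. They read 0.368% methylated at CpH sites, so that CHG and CHH were 1.10 and 1.09 times that rate in the windows, 1.68 and 1.71 times in the flanks, and 2.13 and 2.42 times over the autosomes.

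The windows were compared with their flanks by Fisher's exact test on read counts, two-sided, with Benjamini-Hochberg adjustment over the 9 comparisons. Reads of neighbouring sites and PCR copies are not independent, so these p-values are too small, and they compare regions of 1 library. On chromosome 5 all 3 contexts were lower in the window. CHG was 0.408% in the window (0.375% to 0.444%) and 0.764% in its flanks (0.743% to 0.786%), a difference of -0.356 points (-0.396 to -0.316, Fisher's exact test, adjusted p = 3.33e-52). CHH was 0.408% in the window and 0.824% in the flanks (-0.416 points, Fisher's exact test, adjusted p = 2.43e-33). CpG was 69.7% in the window and 78.3% in the flanks (-8.64 points, Fisher's exact test, adjusted p = 5.57e-125). The size of the CpH differences depends on how much of the flanks is taken. With flanks of 1 Mb they were -0.177 points at CHG (Fisher's exact test, adjusted p = 4.32e-14) and -0.176 at CHH (adjusted p = 5.27e-07), and against the part of the higher flank 1 to 2 Mb away they were -0.681 (adjusted p = 1.93e-102) and -0.978 (adjusted p = 2.14e-66).

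On chromosome 17 the CpH difference was smaller but ran the same way. CHG was 0.416% in the window (0.403% to 0.429%) and 0.568% in the flanks (0.549% to 0.587%), a difference of -0.152 points (-0.175 to -0.129, Fisher's exact test, adjusted p = 1.43e-39). CHH was 0.390% in the window and 0.615% in the flanks (-0.224 points, Fisher's exact test, adjusted p = 3.48e-38). CpG was 76.1% in the window and 77.3% in the flanks (-1.17 points, Fisher's exact test, adjusted p = 1.91e-09), but the flanks differed more from each other than from the window. The window lay between the lower flank at 80.9% and the higher flank at 73.5%, so the CpG direction depends on the flank and turns round against the higher flank alone (2.61 points).

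On chromosome 7 the window and its flanks were nearly alike in CpH, since the flanks were low as well. CHG was 0.382% in the window (0.366% to 0.398%) and 0.431% in the flanks (0.410% to 0.453%), a difference of -0.0490 points (-0.0759 to -0.0221, Fisher's exact test, adjusted p = 0.000346), which did not pass with flanks of 1 Mb (-0.0172 points, adjusted p = 0.271). CHH was 0.423% in the window and 0.452% in the flanks, and the difference of -0.0289 points did not pass the test (-0.0668 to 0.00900, Fisher's exact test, adjusted p = 0.137). That CHH value rests on the flank step chr7:10600001-10700000, which read 3.42%. In it, 9 CHH sites within 20 bases held 142 of the 157 methylated reads. Without that step the flanks were at 0.383% and the window was higher, by 0.0396 points (Fisher's exact test, adjusted p = 0.0352). CpG was higher in the chromosome 7 window, at 74.5% against 72.0% in the flanks (2.45 points, Fisher's exact test, adjusted p = 3.25e-20), a difference that also did not pass with flanks of 1 Mb (0.630 points, adjusted p = 0.0528).

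**Figure D1:**
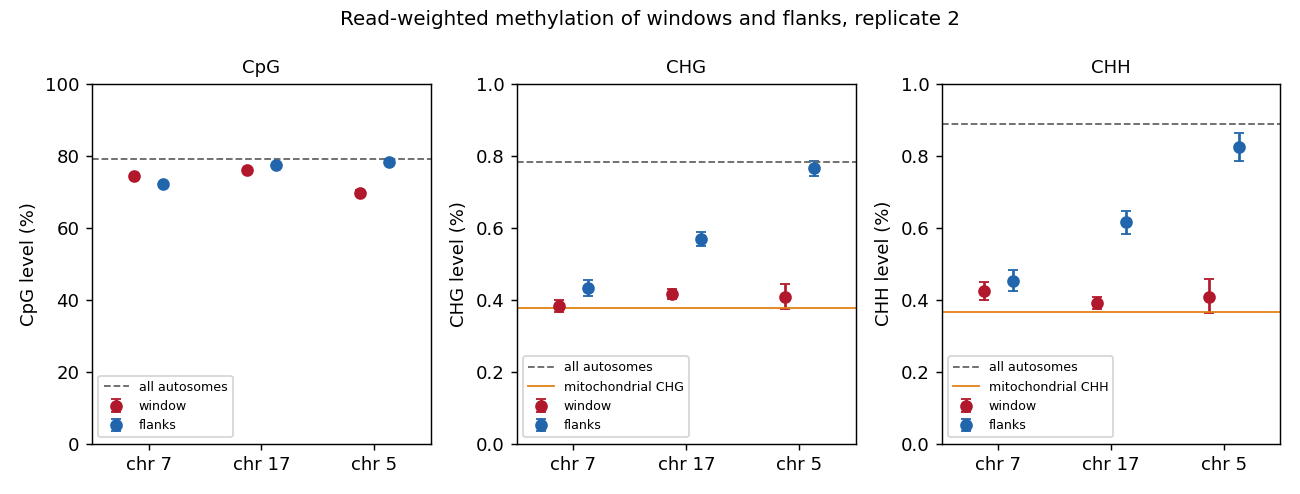
Read-weighted methylation (y axis, percent of reads) of each window (red) and its flanks (blue) at CpG, CHG and CHH sites, with exact 95% intervals that cover counting error only. The dashed line is the level over all autosomes and the orange line the mitochondrial level of the same context. All 3 windows lie between 0.382% and 0.423% at CpH sites, while the flanks spread between 0.431% and 0.824%.

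Between windows, CHG levels spanned 0.382% to 0.416%, where their flanks spanned 0.431% to 0.764%. Over the 3 pairs of windows and 3 contexts, adjusted over 9 comparisons, the CHG level differed between the chromosome 7 and 17 windows only (-0.0337 points, Fisher's exact test, adjusted p = 0.00319). The other CpH pairs did not pass, with differences between -0.0265 and 0.0326 points. CpG differed in every pair. Chromosome 7 minus 17 was -1.68 points, chromosome 7 minus 5 was 4.76, and chromosome 17 minus 5 was 6.43.

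How far the windows stood above failed conversion was read against mitochondrial sites of the same context, over 6 comparisons. The chromosome 7 window did not pass the test at CHG (0.00522 points above 0.377%, interval -0.0123 to 0.0227, Fisher's exact test, adjusted p = 0.555), but passed it at CHH (0.0565 points above 0.366%, adjusted p = 5.74e-06). The chromosome 17 window lay above the mitochondria in both contexts, by 0.0389 points at CHG (Fisher's exact test, adjusted p = 1.04e-06) and 0.0239 points at CHH (adjusted p = 0.00900). The chromosome 5 window passed in neither, at 0.0317 points for CHG (-0.00285 to 0.0663) and 0.0420 points for CHH (-0.00437 to 0.0883), both with an adjusted p = 0.0786 in Fisher's exact test. Whether nuclear and mitochondrial DNA converted at the same rate was not tested.

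In steps of 100 kb the low CpH level was spread over the whole of each window. Every autosomal bin with at least 100 sites was tested against the autosomal level of its context by a two-sided exact binomial test, with Benjamini-Hochberg adjustment over all bins at 0.05. At CHG, 98 of 99 window steps were called lower and 0 higher, where 31.4% of 23800 autosomal bins were called lower and 21.5% higher. Of the 109 flank steps tested, 71 were called lower and 6 higher. Part of the chromosome 7 window was known to be low in CHG beforehand, so the low calls there are no new support. At CHH, 88 of 90 window steps tested were called lower and 0 higher (27.7% of autosomal bins lower, 22.4% higher), against 39 lower and 5 higher of 72 flank steps. The CHG step that was not called was chr7:11400001-11500000, with 191 sites at 0.583% (exact binomial test, adjusted p = 0.210).

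Window steps ranged between 0.152% and 0.583% at CHG, with a median of 0.408%, against a median of 0.583% in flank steps and 0.734% in all autosomal bins. The median window step stood at percentile 3.54 of the autosomal bins, and the median flank step at percentile 21.8. The mean over steps was 0.378% ± 0.0851 in the chromosome 7 window (SD, n = 40 steps), 0.414% ± 0.0622 in the chromosome 17 window (n = 51) and 0.410% ± 0.0596 in the chromosome 5 window (n = 8). The spread among steps was 1.49, 1.29 and 1.22 times what counting error alone gives in these windows, against 1.73 to 6.65 times in the flanks. All 51 steps of chromosome 17 and all 8 of chromosome 5 lay below the median of their flank steps, but only 22 of 40 on chromosome 7. No window step lay below the lowest of its flank steps, so the ranges overlapped in all 3 windows.

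**Figure D2:**
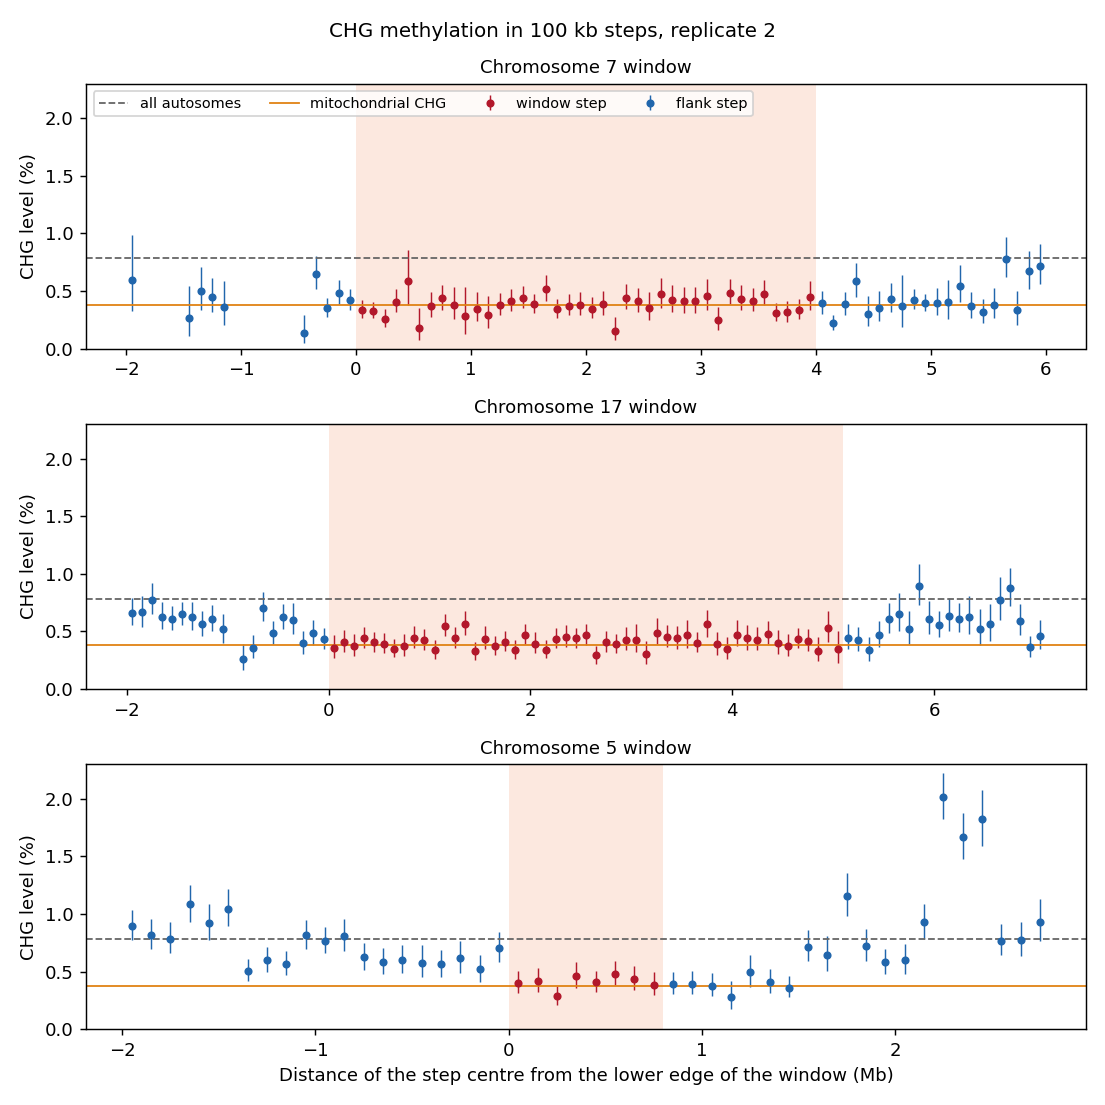
CHG level (y axis, percent of reads) of each 100 kb step across the windows (red, shaded) and flanks (blue), by distance of the step centre from the lower edge of the window in Mb, with exact 95% intervals. The dashed line is the autosomal level (0.784%) and the orange line the mitochondrial CHG level (0.377%). Window steps lie between 0.152% and 0.583%, on both sides of the orange line and all below the dashed line. The median flank step is at 0.676% on chromosome 5, 0.602% on chromosome 17 and 0.395% on chromosome 7. Steps with fewer than 100 sites are not drawn.

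Some steps stood out within that narrow range. In the chromosome 7 window the lowest CHG step with at least 200 sites was chr7:13200001-13300000, at 0.152% (0.0758% to 0.271%) over 312 sites, and the highest was chr7:12600001-12700000, at 0.514% (0.410% to 0.637%) over 669 sites. In the chromosome 17 window the steps ranged between chr17:20800001-20900000 at 0.291% (0.220% to 0.376%) and chr17:19500001-19600000 at 0.564% (0.466% to 0.675%). In the chromosome 5 window they ranged between chr5:109400001-109500000 at 0.285% (0.213% to 0.374%) and chr5:109700001-109800000 at 0.482% (0.387% to 0.594%). A step low in CHG was not always low in CHH. The step chr7:11200001-11300000 was among the lowest at CHG, at 0.257%, and had the highest CHH level of any window step tested, at 0.698%. On chromosome 17 the placed promoter of Vmn2r110 lies in the step next below the lowest, and that of Vmn1r234 in the step chr17:21300001-21400000, at 0.304%.

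The low stretches did not stop at the window edges. Consecutive low CHG steps were counted outwards to the first step not called low, which could be an untested one. Over all autosomal bins 31.4% were called lower. On chromosome 7, 3 consecutive steps below the window and 16 above it were also called low at CHG. Only 10 of the 20 steps of the lower flank there could be tested, and 8 of these were called lower. On chromosome 17 the stretch went on for 6 steps below and 5 above. On chromosome 5 it ended at the lower edge but ran for 7 steps past the higher edge. Divided there, after the values were seen, the adjoining 0.7 Mb (chr5:110000001-110700000) read 0.390% at CHG and 0.401% at CHH, and the rest of that flank (chr5:110700001-112000000) 1.04% and 1.31%. CpG did not follow the same line, at 84.3% in the adjoining stretch and 75.8% in the rest, against 69.7% in the window. The steps of highest CHG in any flank were the 3 consecutive ones across chr5:111400001-111700000, at 2.02%, 1.67% and 1.82%.

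**Figure D3:**
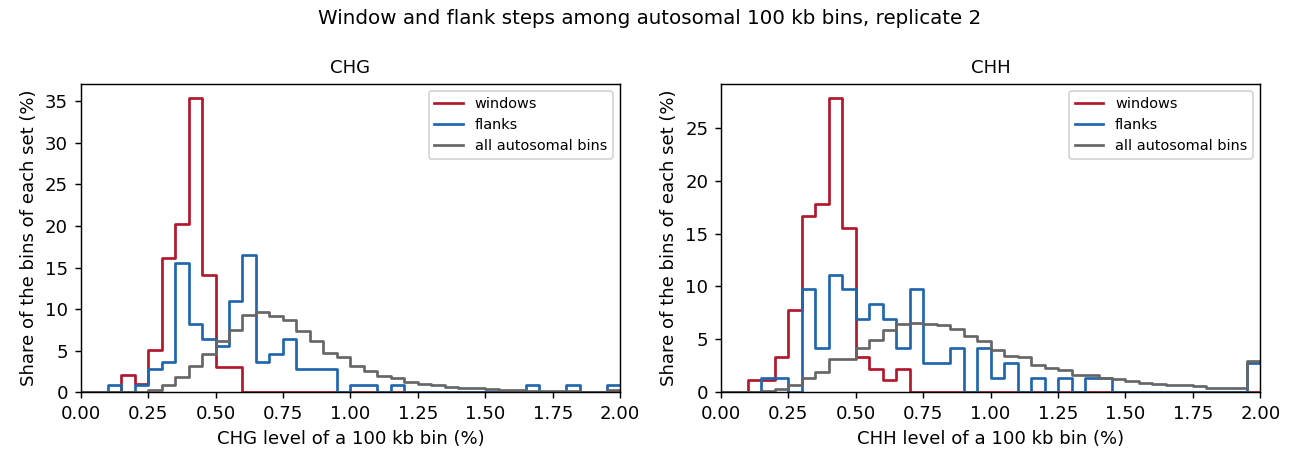
Distribution of CHG (left) and CHH (right) levels of 100 kb bins, as the share of bins of each set (y axis, percent) at each level (x axis, percent of reads), for window steps (red), flank steps (blue) and all autosomal bins (grey). The last bar of each panel also holds all bins above it. Window steps crowd around 0.408% at CHG and 0.402% at CHH, below most autosomal bins (medians 0.734% and 0.836%).

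Single CpH sites were then called against failed conversion, site by site, with an exact binomial test (one-sided) of its reads against the mitochondrial CpH rate, adjusted at 0.01 over all autosomal sites of the context. Called sites were rarer in the windows. At CHG, 316 of 69684 window sites were called (0.453%), against 696 of 67074 flank sites (1.04%) and 1.46% of autosomal sites (Fisher's exact test of windows and flanks, adjusted p = 3.39e-36). At CHH, 206 of 26749 window sites were called (0.770%), against 334 of 19099 flank sites (1.75%) and 2.75% of autosomal sites (Fisher's exact test, adjusted p = 1.02e-20). On chromosome 7 alone the share did not differ past the threshold, at 0.417% in the window and 0.520% in the flanks for CHG (Fisher's exact test, adjusted p = 0.182), and 0.837% and 0.820% for CHH (adjusted p = 1). No methylated read was seen at 93.7% of CHG and 91.9% of CHH sites of the windows, and at 89.7% and 86.7% of autosomal sites. A call needed at least 3 methylated reads, so at these depths low levels at single sites went uncalled.

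Among the called sites methylation was partial, with a median of 16.7% at CHG and 12.5% at CHH, close to the detection limit of the test. A few were much higher. At position 109538619 of chromosome 5 a CHG cytosine had 14 of 26 reads methylated (53.8%, exact binomial test, adjusted p = 1.17e-23). At position 11788833 of chromosome 7 another had 11 of 22 methylated (50%, exact binomial test, adjusted p = 6.30e-18). These were the only CpH sites called at 50% or more in the windows. On chromosome 17 the most methylated of the 3 sites with the lowest p was the CHG cytosine at position 20133604, with 8 of 21 reads (38.1%, exact binomial test, adjusted p = 1.01e-11). Of the 9 sites picked in this way, 3 from each window, 7 were CHG and 2 CHH, and none had a listed cytosine as its next base. Such a neighbour is uncommon in the windows, at 1556 of 69684 CHG sites and 5831 of 26749 CHH sites, so 9 sites cannot show a preference. Of the 170, 305 and 47 called CpH sites on chromosomes 7, 17 and 5, 18, 25 and 4 lay within 1000 bases of the called site before them. The share expected from the density of listed sites was not computed, so these counts cannot tell whether called sites cluster.

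The listed positions also tell something of the sequence around each cytosine, since a listed neighbour must be a cytosine. For CHG the next base was listed (a CCG) or not. For CHH the next base was listed (CC), only the third base was (so the next base is A, T or a cytosine that was not listed), or neither was. In the brain, CpH methylation is known to favour A as the next base. The class most methylated elsewhere was the one most reduced in the windows. CHH sites with only the third base listed read 0.491% in the windows (0.454% to 0.530%), 1.16% in the flanks and 2.06% over the autosomes. CHG sites whose next base was not listed read 0.403% in the windows, 0.625% in the flanks and 0.795% over the autosomes.

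Where the next base was listed, CHG sites read 0.409% in the windows, 0.418% in the flanks and 0.432% over the autosomes, and CHH sites 0.347%, 0.413% and 0.355%. None of the 3 windows differed from its flanks in these classes after adjustment over 21 comparisons (Fisher's exact test, adjusted p between 0.157 and 0.622). On chromosome 7 the CHH value of this class hides unlike flanks, since the window was at 0.375%, the lower flank at 0.967% and the higher flank at 0.303%. The window was thus lower than the lower flank (-0.592 points, Fisher's exact test, adjusted p = 7.09e-13), while its difference from the higher flank did not pass (0.0720 points, adjusted p = 0.0893). Without the step chr7:10600001-10700000 the window was higher than its flanks in this class, by 0.0783 points (Fisher's exact test, adjusted p = 0.0411).

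For CHH with only the third base listed, the chromosome 5 window was at 0.627% and its flanks at 1.94% (Fisher's exact test, adjusted p = 3.07e-24), and the chromosome 17 window at 0.471% and its flanks at 1.01% (adjusted p = 3.14e-24). On chromosome 7 this class was at 0.495% in the window and 0.477% in the flanks, and the difference did not pass (0.0182 points, interval -0.0816 to 0.118, Fisher's exact test, adjusted p = 0.752). That too depends on the flank, as the window was 0.259 points above the lower flank (Fisher's exact test, adjusted p = 0.00200) and -0.0517 points from the higher (adjusted p = 0.467). For CHG with the next base not listed, all 3 windows were lower than their flanks, by -0.370 points on chromosome 5 (Fisher's exact test, adjusted p = 3.84e-54), -0.159 on chromosome 17 (adjusted p = 2.40e-41) and -0.0488 on chromosome 7 (adjusted p = 0.000735).

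**Figure D4:**
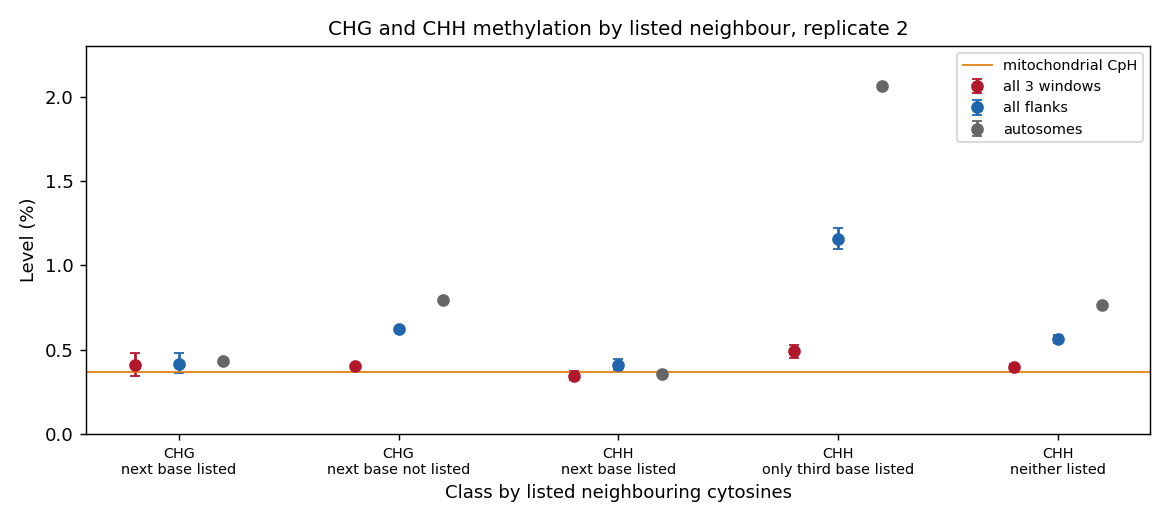
CHG and CHH level (y axis, percent of reads) by whether a neighbouring cytosine is listed (x axis), for all 3 windows together (red), all flanks (blue) and the autosomes (grey), with exact 95% intervals. The orange line is the mitochondrial CpH rate (0.368%). Windows, flanks and autosomes differ most where only the third base is listed, at 0.491%, 1.16% and 2.06%, and less where the next base is listed, at 0.347%, 0.413% and 0.355% for CHH.

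CpG sites split in another way by their neighbours. CpG with a listed cytosine before it (CCG) read 81.1% in the windows, 78.0% in the flanks and 79.4% over the autosomes. CpG with no listed cytosine before it read 73.5% in the windows, 76.4% in the flanks and 78.9% over the autosomes. On chromosome 17 the window was higher than its flanks for CpG after a listed cytosine (82.0% against 78.9%, Fisher's exact test, adjusted p = 5.45e-14), though not against its lower flank alone (0.0232 points, adjusted p = 0.973). It was lower for the other CpG sites (74.8% against 76.9%, Fisher's exact test, adjusted p = 1.78e-22). On chromosome 5 the CpG deficit lay in sites with no listed cytosine before them, at 67.5% in the window and 78.7% in the flanks (Fisher's exact test, adjusted p = 2.23e-164). Sites after a listed cytosine there were at 78.1% and 76.9%, which did not pass (1.26 points, interval -0.243 to 2.76, Fisher's exact test, adjusted p = 0.164), but did once the flank step of highest CpG was left out (1.71 points, adjusted p = 0.0431).

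Partly methylated CpG sites were common in the windows. Sites at 20% to below 80% made up 41.5% of CpG sites in the chromosome 5 window and 25.8% in its flanks, 39.6% in the chromosome 17 window and 29.4% in its flanks, and 43.1% in the chromosome 7 window and 44.1% in its flanks, against 28.3% over the autosomes. The median CpG site read 80%, 82.6% and 81.0% in the windows of chromosomes 5, 17 and 7, against 90.0%, 86.7% and 80% in their flanks. Sites below 20% made up 7.60%, 3.70% and 3.45% of the CpG sites of these windows, and 6.68%, 6.62% and 5.59% of those of their flanks. By step, with at least 20 CpG sites, 66 of 97 window steps were called lower than the autosomal CpG level and 8 higher (30.8% and 46.4% of autosomal bins), against 59 and 30 of 109 flank steps. The 8 higher steps included 7 on chromosome 17, all from position 21100001 upwards, and the most methylated was chr17:22900001-23000000, at 88.8%.

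**Figure D5:**
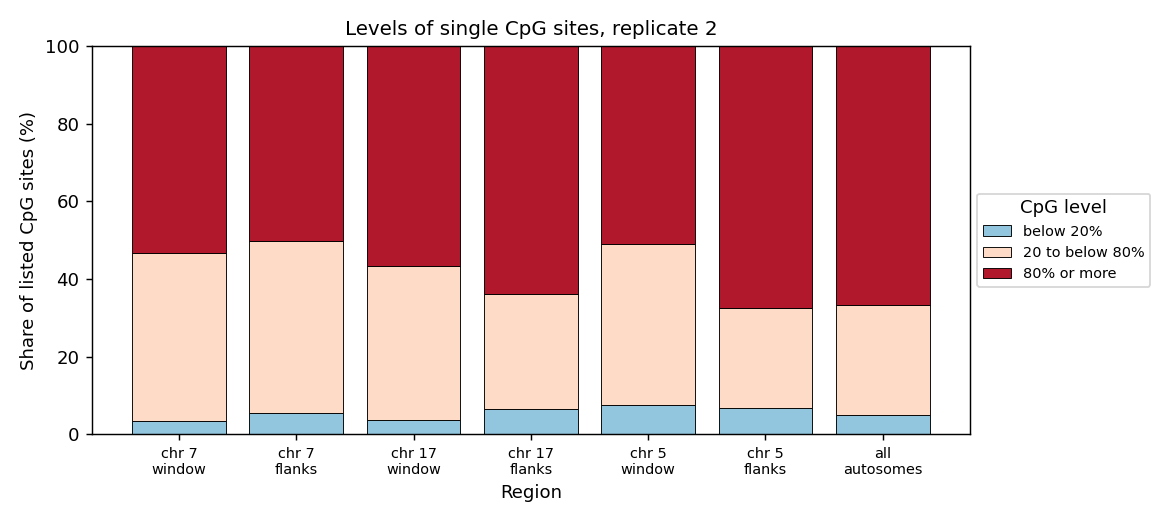
Share of listed CpG sites (y axis, percent) below 20%, at 20% to below 80%, and at 80% or more methylation, for each window beside its flanks and for the autosomes. The chromosome 17 and 5 windows hold more sites of the middle class (39.6% and 41.5%) than their flanks (29.4% and 25.8%), and on chromosome 7 the window and flanks are alike (43.1% and 44.1%).

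Runs of at least 4 consecutive listed CpG sites, each below 20% and at most 2 kb apart, numbered 5, 7 and 2 in the windows of chromosomes 7, 17 and 5, and 5, 17 and 18 in their flanks. Per Mb that was 1.25, 1.37 and 2.5 runs in these windows, and 1.25, 4.25 and 4.50 in the flanks. The runs took in 1.15%, 0.980% and 5.56% of the CpG sites of the windows, 1.27%, 2.98% and 2.87% of those of the flanks, and 1.73% over the autosomes, so the chromosome 5 window held the largest share of the 3. The longest by sites was chr5:109986248-109987723, where 33 CpG sites read 0.443% over 903 reads. It lies in the step chr5:109900001-110000000, whose CpG level of 52.5% was the lowest of any window step. On chromosome 7 the run chr7:13388653-13389415 held 12 CpG sites with 0 methylated of 290 reads (up to 1.03%), and the run chr7:13595292-13595896 spans part of the placed Zbtb45 promoter. On chromosome 17 the run chr17:22876228-22876493 held 10 CpG sites with 0 methylated of 241 reads (up to 1.24%). None of the placed receptor promoters overlapped a run, but with 0 to 3 CpG each they could not hold a whole run of 4, so this tells little. With the runs left out of windows and flanks, CpG read 74.2% in the chromosome 5 window and 80.6% in its flanks, 76.9% and 79.6% on chromosome 17, and 75.3% and 73.0% on chromosome 7, so each difference kept its direction.

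Site density differed between windows and flanks. The windows had 606, 780 and 712 listed CHG sites per 100 kb on chromosomes 7, 17 and 5, against 223 to 498, 543 to 702 and 635 to 753 in their flanks and a median of 779 over the autosomes. In the lower flank of chromosome 7, 3 steps had no listed CHG site at all. CpG made up 10.3%, 10.1% and 10.7% of the listed CpG and CHG sites of these windows, against 10.7% to 14.4% in the flanks and 13.6% over the autosomes. Median depth was 22 to 23 reads at CpG and CHG sites and 32 to 33 at CHH sites, in windows and flanks alike. The part of site density in the level differences was not tested. Sites of more than 100 reads, left out above, numbered 9 at CHG and 32 at CHH in the windows and read 0.279% and 0.341%.

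Replicate 1 held few sites in the windows. Over all 3 windows and all flanks, its CHG sites read 0.329% in the windows (0.107% to 0.766%, 65 sites) and 1.26% in the flanks (0.835% to 1.83%, 91 sites). Its CHH sites read 0.537% in the windows (0.351% to 0.786%, 210 sites) and 0.321% in the flanks (0.183% to 0.520%, 212 sites), so the window value was the higher of the pair there. Its CpG sites read 89.1% (83.1% to 93.5%, 7 sites) in the windows and 74.6% (69.6% to 79.1%, 15 sites) in the flanks. The intervals of windows and flanks overlapped at CHH and not at CHG or CpG, and at CpG the window was the higher, where in replicate 2 it was the lower. The CHG gap came from chromosome 7, where 0 of 398 reads were methylated in the window and 25 of 1137 in the flanks (-2.20 points, Fisher's exact test, adjusted p = 0.00364). On chromosomes 17 and 5, where replicate 2 had its large CHG differences, replicate 1 gave -0.103 points (Fisher's exact test, adjusted p = 1) and 0.386 points (adjusted p = 0.429).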

How the data were processed

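Whole-genome bisulfite reads of 2 dentate gyrus libraries (replicate 1 and 2, numbered as in the labels) had been handled with Bismark 0.7.5 against mm9, per the submitters' processing notes. How reads were trimmed, and whether PCR duplicates or unconverted reads were removed, is not given in the sources used here. For each library and context the authors deposited counts of methylated, unmethylated and all reads per cytosine, and the percent of methylated reads, which the authors derived from those counts. The tables list cytosines of 1 strand class, OT, which were cytosines of the plus strand where promoter sequences were matched to them. The lowest depth listed is 20 reads, and 30 for CHH in replicate 2, so CHH sites of lower depth were not analysed. Lambda spike-in reads were not analysed here.

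From the counts, read-weighted levels were computed for sites of at most 100 reads. Mitochondrial sites, which are far deeper, were used without that limit. Exact 95% intervals cover counting error only. They make no allowance for reads that are PCR copies of each other. Windows were compared with flanks by Fisher's exact test, bins and sites by exact binomial tests, each with Benjamini-Hochberg adjustment over its whole family. The scripts were tested on simulated data. The software was Python 3.11.15 with numpy 2.4.6, pandas 2.3.3, scipy 1.17.1, numba 0.67.0 and matplotlib 3.10.9. The design assumed at least 100 sites in a bin in every context, and since CpG sites are sparse a minimum of 20 was added for CpG after the data were seen.

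The windows and classes were chosen with earlier results of these data known, which had already named chr7:11000001-12000000 among the regions of lowest CHG level. Regions named are, by rule, the 3 lowest and 3 highest CHG steps of each window with at least 200 sites (the lowest and the highest alone on chromosome 5), the 3 CpH sites of lowest p in each window, and the runs of low CpG, of which the text gives a selection. The other steps and stretches named in windows and flanks, promoter placement, and the genes named through it were added after the data were seen. RefSeq sequences came from the GRCm38.p6 tables, whose coordinates are not printed. Placements with no shift shared by another gene were not used.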

Additional observations from a re-analysis of the deposited data

How the results depend on the processing

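No paired analysis was possible because there is 1 group of libraries and the comparisons are between regions of 1 library. Of 99 values of window minus flank level under the alternatives, 8 differences of step medians kept their direction but were counted as moved. Apart from these, 74 kept their direction and, where a p-value was computed, their side of the threshold. By neighbour class 107 of 126 did so. Some of these could not change. CHH sites were listed from 30 reads only, so that limit left them as they were, and subtracting the mitochondrial rate from both sides leaves a difference as it is. The values that did change follow, in percentage points, and the cause was not tested unless named.

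Against the lower flank alone, chromosome 7 CHH was -0.171, and against the higher flank alone 0.0164. Leaving out the highest flank step turned it to 0.0396, since that step alone read 3.42%. Chromosome 17 CpG was 2.61 against the higher flank, 1.13 against its part 1 to 2 Mb away, and 0.355 with 1 Mb flanks. With 1 Mb flanks chromosome 7 CpG was 0.630 and CHG -0.0172. As differences of step medians, CpG, CHG and CHH were 4.21, -0.0123 and 0.0159 on chromosome 7, -2.89, -0.188 and -0.163 on chromosome 17, and -7.32, -0.261 and -0.305 on chromosome 5. Replicate 1, with 7 CpG sites in all windows together, gave 6.24 for CpG and 0.188 for CHH on chromosome 7, 24.1, -0.103 and -0.153 for CpG, CHG and CHH on chromosome 17, and 20, 0.386 and 1.04 on chromosome 5.

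By neighbour class, chromosome 7 CpG after a listed cytosine was -4.70 from 30 reads, 1.17 with no upper limit on reads, 1.82 against the lower flank and 1.02 against the higher. On chromosome 17 that class was 3.30 from 30 reads and 0.0232 against the lower flank, and on chromosome 5 2.14 against the higher flank. The remaining CpG sites of chromosome 17 were at 1.93 against the higher flank. CHG with a listed next base was -0.0431 on chromosome 17 from 30 reads, and -0.00870 on chromosome 5 as a mean of site levels. Against the lower and the higher flank of chromosome 7, CHH was -0.592 and 0.0720 with the next base listed, 0.259 and -0.0517 with only the third base listed, and -0.137 and 0.00881 with neither. Without the highest flank step it was 0.0783 with the next base listed and 0.0311 with neither, and chromosome 5 CpG after a listed cytosine was 1.71.

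CpG steps with at least 100 sites gave 15 lower and 0 higher calls of 20 tested (31.1% and 47.5% of autosomal bins), against 66 and 8 of 97 with at least 20 sites. From 30 reads 9 of the 16 CHG steps left were called lower (12.6% of autosomal bins), and with at least 300 sites 42 of the 42 CHH steps left (31.8%). Called CHG sites of the windows numbered 42 of the 6911 left from 30 reads, against 316 of 69684 in the main call. With a background rate of 1% they numbered 132 of 69684, and CHH sites 47 of 26749, since that rate is stricter. Flank and autosomal shares are not given for these settings, so the counts do not compare the windows with either. Subtracting the mitochondrial rate from both sides leaves every difference as it is. Depth limits single sites, where low levels went uncalled.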
